A study of Homo sapiens with 12 samples.

Results

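The 28 genes described here encode proteins of the small (40S) subunit of the cytosolic ribosome. They were chosen by name: RPSA, FAU and 26 genes whose symbols begin with RPS. Each matched 1 of the 19972 transcripts of the deposited table through the gene names deposited beside it, and all 28 were present. The samples were human induced neurons derived from H1, an established human embryonic stem cell line, by overexpression of the neuronal transcription factor Ngn2. The cells were homozygous for an allele of LLPH called Nterm (Nterm/Nterm) or carried wild-type LLPH (wt/wt). LLPH is a nuclear protein named after its counterpart in the sea slug Aplysia, and the sources used here do not say what the Nterm allele changes. Both genotypes were grown to day in vitro 14 without added glia, in medium with 2 µg/mL doxycycline and 4 µM cytosine arabinoside (AraC), which acts on dividing cells. Both were harvested in cycloheximide, which holds ribosomes on the mRNA, at 100 µg/mL. Each genotype had 3 RNA-seq libraries, which measure polyA mRNA, and 3 Ribo-seq libraries, which count footprints, the mRNA fragments that ribosomes protect from nuclease. The labels do not state whether replicates are separate cultures or clones, and p-values here cover the spread among libraries alone.

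RNA libraries held 18944427 to 21478215 counts in Nterm/Nterm and 21834425 to 25089790 in wt/wt. Footprint libraries held 12652833 to 15177310 counts in Nterm/Nterm and 13155130 to 16356419 in wt/wt. In the 6 footprint samples the genotype tag disagrees with the title, the description and the column name, each of which gives the other genotype, and the titles were followed. LLPH footprints numbered 39, 22 and 36 in Nterm/Nterm and 88, 135 and 98 in wt/wt, a log2 change of -1.60 (SE 0.19, edgeR adjusted p = 1.77e-05), and LLPH RNA changed by 0.14 (SE 0.06, edgeR adjusted p = 0.135). All 12 neuron markers were measured, and their summed RNA level was 16690.2 to 18084 CPM (counts scaled to library size) in Nterm/Nterm and 14488 to 15524 CPM in wt/wt. None of 9 glial markers had a named transcript. Of 8 pluripotency markers 5 had one, described below, and POU5F1, NANOG and TDGF1 had none. A missing name does not show that a gene was absent, since 9100 of the 19972 transcripts had no name.

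The small subunit binds the mRNA, scans it for the start codon and decodes it. It has a head, a body and a platform, and a subunit takes 1 copy of each of its proteins. Messenger RNAs of ribosomal proteins and of several translation factors are known as TOP mRNAs, for a 5′ terminal oligopyrimidine tract: they begin with C followed by an unbroken run of C and T. Their translation is known to be controlled as a group through mTOR kinase and the RNA-binding protein LARP1.

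The start of the transcript is therefore shown for genes at both ends of the RNA results, the 5 printable genes with the lowest RNA changes and the 3 with the highest. Sequences are from RefSeq, build GRCh38.p14, and give 5 bases before an annotated start and 20 bases from it, on the gene's own strand. RPS19 had 2 annotated starts, and each other gene shown had 1. The start shown for RPS19 was chosen for its run of C and T, preferring a run of at least 5 bases led by C and then the longest. Capitals mark the run of C and T that begins at the start.
RPS27: tcgctCCTTTCCggcggtgacgacc
RPS18: ccgctCTCTCTTCCacaggaggcct
RPS10: tccttCCTTTCCagccccggtaccg
RPS19: tcgttCCCTTTCCCCTggctggcag
RPS29: gcagcTggcagcggtggttgtttct
RPS13: gctctCCTTTCgttgcctgatcgcc
RPS23: cttctCTCTTTCgctcaggcccgtg
RPS26: acctcgattttcttccgccatccgg
The windows lie at chr1:153990757-153990781 on the plus strand for RPS27, chr6:33272070-33272094 on the plus strand for RPS18 and chr6:34426050-34426074 on the minus strand for RPS10. Those of RPS19, RPS29 and RPS13 lie at chr19:41860250-41860274 on the plus strand, chr14:49598691-49598715 on the minus strand and chr11:17077648-17077672 on the minus strand. Those of RPS23 and RPS26 lie at chr5:82278335-82278359 on the minus strand and chr12:56041913-56041937 on the plus strand.

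A start was available for 25 of the 28 genes, with RPS2, RPS15A and RPS20 not used here. Searched on the gene's own strand, a C followed by at least 4 bases of C or T stood at an annotated start of 19 of the 25 (76%). The same was found in 1404 of 27305 genes of the RefSeq table (5.14%). It was found in 28 of 38 large-subunit protein genes (73.7%), 2 of 28 genes for 40S assembly factors and chaperones (7.14%) and 3 of 29 genes for mitochondrial small-subunit proteins (10.3%). The 6 small-subunit genes without it were RPS29, RPS7, RPS4X, RPS28, RPS15 and RPS26. The median RNA change was -0.13 on the log2 scale in the 19 genes with it and -0.14 in the 6 without. The median change in translational efficiency was 0.25 and 0.23, in the same order. RPS15A, RPS2 and RPS20 are missing from these medians, with RNA changes of -0.25, -0.24 and -0.22, among the lowest of the 28. The runs of C and T are letters at annotated starts, and start sites used in these cells were not measured.

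Messenger RNA of the small-subunit proteins was lower in Nterm/Nterm neurons. Of the 28 genes, 14 fell at an adjusted p under 0.05 and 0 rose, where 10.6% of the 14659 transcripts tested were lower and 7.25% higher (edgeR quasi-likelihood test). The fitted change was below 0 for 27 of the 28, against 50.1% of all transcripts tested, and above 0 for RPS26 alone, against 49.9%. The median change was -0.15, against -0.00 over all transcripts tested, and single genes ran from -0.27 to 0.04. In linear terms the mean level differed by -17.1% to 2.79%, with a median of -9.82%. Together the 28 genes summed to 9134, 8599 and 8247 CPM in the Nterm/Nterm libraries, against 9997, 9602 and 9347 CPM in the wt/wt libraries. Every Nterm/Nterm sum was below every wt/wt sum.

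**Figure D1:**
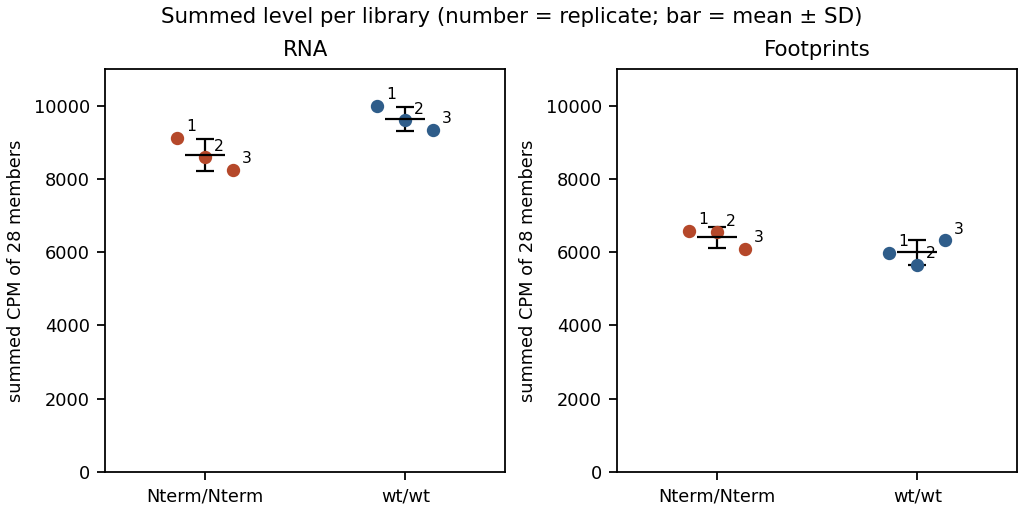
Summed level of the 28 small-subunit protein genes in each library, in CPM, for RNA (left) and footprints (right); points are libraries with their replicate numbers, and bars give mean ± SD (n = 3). The 3 Nterm/Nterm RNA sums lie below the 3 wt/wt sums, while the footprint sums of the genotypes overlap.

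Among the proteins of the body and platform, RPS27 and RPS15A had the lowest RNA changes and kept an adjusted p under 0.05 whichever of the 6 RNA libraries was left out. RPS27, a zinc finger protein with the close paralog RPS27L, had 187, 172 and 169 CPM in Nterm/Nterm and 223, 209.5 and 205 CPM in wt/wt. The groups did not overlap, and the log2 change was -0.27 (SE 0.05, edgeR adjusted p = 0.00433). RPS15A, which joins the body early in assembly, had 204, 196 and 191 CPM in Nterm/Nterm and 239, 232 and 233 CPM in wt/wt. Again every Nterm/Nterm library was the lower, with a change of -0.25 (SE 0.04, edgeR adjusted p = 0.00204). RPS2, on the mRNA entry side, had 877, 832 and 684 CPM in Nterm/Nterm and 971, 933 and 916 CPM in wt/wt. Its Nterm/Nterm library 3 stood lowest, and its change of -0.24 (SE 0.07, edgeR adjusted p = 0.0401) shrank to -0.14 without that library. The call of RPS2 was kept there (edgeR adjusted p = 0.0444). It was lost without wt/wt library 1 (edgeR adjusted p = 0.159) and without wt/wt library 2 (edgeR adjusted p = 0.115). The other body and platform genes that fell were RPS6, a substrate of the S6 kinases, RPS14, a gene of the 5q deletion syndrome, RPS7, RPS24 and RPS4X, with changes of -0.20 to -0.15. RPS4X was near the threshold (edgeR adjusted p = 0.0495). It missed the threshold when edgeR used DESeq2 size factors (adjusted p = 0.0526) or library totals (adjusted p = 0.0501). In all, 8 of 16 body and platform genes fell, where 10.6% of all transcripts tested were lower, with a median change of -0.15.

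In the head, 6 of 12 genes fell, where 10.6% of all transcripts tested were lower, with a median change of -0.16. RPS20, a protein that ZNF598 ubiquitinates on collided ribosomes, had 346, 331 and 300.3 CPM in Nterm/Nterm and 397, 382 and 364 CPM in wt/wt. Its groups were apart, with a change of -0.22 (SE 0.05, edgeR adjusted p = 0.0147). RPS18, which contacts the large subunit, had 535, 499.9 and 476 CPM in Nterm/Nterm and 610.3, 590.2 and 559 CPM in wt/wt. Its groups were also apart, with a change of -0.22 (SE 0.05, edgeR adjusted p = 0.0112). The remaining head genes that fell were RPS10, RPS19, RPS29 and RPS3, with changes of -0.21 to -0.18. RPS19 is the gene most often mutated in Diamond-Blackfan anaemia, RPS10 is another target of ZNF598, RPS29 binds zinc and RPS3 lines the mRNA entry channel.

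**Figure D2:**
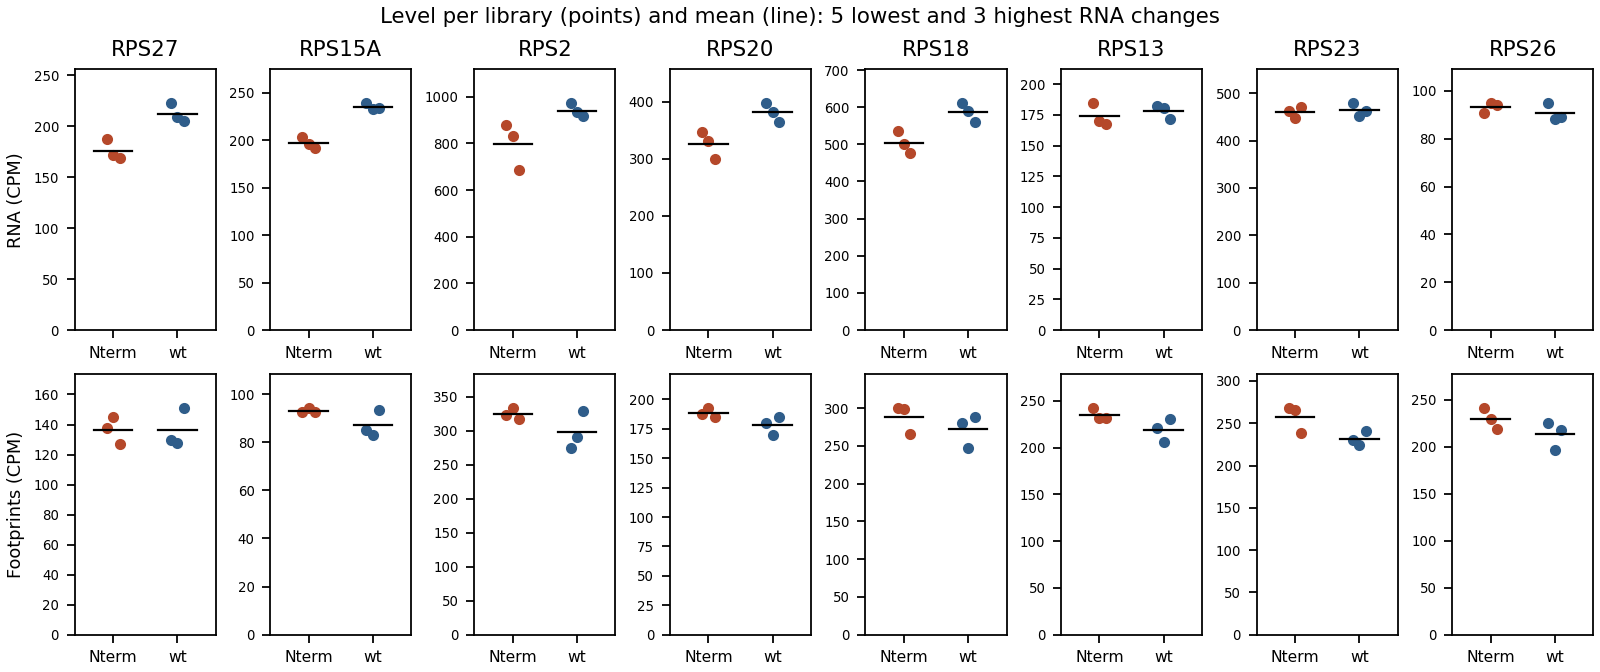
Level per library, in CPM with axes from 0, of the 5 genes with the lowest and the 3 with the highest RNA changes; points are libraries, lines are means (n = 3), the upper row is RNA and the lower row footprints. In RNA the Nterm/Nterm points of RPS27, RPS15A, RPS2, RPS20 and RPS18 lie below all wt/wt points, whereas those of RPS13, RPS23 and RPS26 overlap.

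Some genes stood near 0 in RNA. RPS26, a platform protein at the mRNA exit channel that the chaperone TSR2 carries, had 90.9, 94.8 and 93.9 CPM in Nterm/Nterm and 94.8, 88.2 and 89.0 CPM in wt/wt. Its genotypes overlapped, and its change was 0.04 (95% interval -0.06 to 0.14, edgeR adjusted p = 0.599). RPS23, at the decoding centre, had 463, 448 and 471 CPM in Nterm/Nterm and 478, 452 and 462 CPM in wt/wt. Its change was -0.01 (interval -0.10 to 0.08, edgeR adjusted p = 0.888). RPS13, an early protein of the body, had 184, 170.1 and 168 CPM in Nterm/Nterm and 182, 181 and 171 CPM in wt/wt. Its change was -0.03 (interval -0.14 to 0.07, edgeR adjusted p = 0.688). RPS26 and RPS27, both on the platform side, thus lay at opposite ends of the list. The other 11 genes that missed the threshold were RPS3A, RPS28, RPS9, RPS15, RPS25, FAU, RPS27A, RPS12, RPS21, RPSA and RPS16, with changes of -0.15 to -0.06. FAU and RPS27A are made as fusions with a ubiquitin-like protein and with ubiquitin, and RPS28, RPS9 and RPS3A had edgeR adjusted p-values of 0.0554 to 0.0578.

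In 17 of the 28 genes every Nterm/Nterm RNA library was below every wt/wt library, against 18.8% of transcripts tested. In 24 of 28 each Nterm/Nterm library was below the wt/wt library with the same replicate number, against 29% of transcripts tested. Replicate numbers were taken to pair the RNA libraries by the correlation check described under processing, which cannot settle the pairing. With the number as a block 23 of the 28 genes fell at an edgeR adjusted p under 0.05, all but RPS13, RPS16, RPS21, RPS23 and RPS26, where 16.4% of all transcripts tested were then lower. The count without the block depended on single libraries, as did the share of all transcripts called lower. It was 2 without wt/wt library 1, with 4.13% of all transcripts lower, and 3 without wt/wt library 2, with 4.54%. It was 8 without Nterm/Nterm library 3, with 7.71%, and 9 without Nterm/Nterm library 2, with 11.6%. It was 17 without Nterm/Nterm library 1, with 8.08%, and 15 without wt/wt library 3, with 10.9%. The median change ranged from -0.19 to -0.12 over the 6 fits that left out a library.

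The Nterm/Nterm cultures also differed in marker RNA, and in bulk samples fewer cells of a type and less RNA per cell cannot be told apart. Over all transcripts tested in RNA, 7.25% were higher and 10.6% lower. Of 12 neuron markers 8 rose and 0 fell in RNA, with a median change of 0.17, led by NEFL at 0.30 (SE 0.05, edgeR adjusted p = 0.00338). Of the 7 mesenchymal markers measured, 6 fell and THY1 rose, and their summed level was 2267, 2359 and 1899 CPM in Nterm/Nterm against 3152, 3219 and 2711 CPM in wt/wt. COL3A1, PDGFRB, LUM, DCN and POSTN of that list had no named transcript. Of 5 pluripotency markers measured 3 fell, and their sums were 454 to 536 CPM in Nterm/Nterm and 618 to 686 CPM in wt/wt. Of 7 neural progenitor markers measured 4 fell and SOX1 rose. Sums over the 7 were 952 to 1094 CPM in Nterm/Nterm and 1196 to 1287 CPM in wt/wt. PAX6, HES5 and FABP7 of that list had no named transcript, nor had TDGF1 of the pluripotency list. MKI67, TOP2A, CDK1 and BIRC5 of the proliferation list had none either. Of 6 proliferation genes measured 3 fell, with sums of 149 to 181 CPM in Nterm/Nterm and 213 to 240 CPM in wt/wt. The part of these differences in the lower RNA of ribosomal proteins was not tested.

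Footprints on the same mRNAs gave no call in either direction. None of the 28 genes was called higher or lower, where 4.36% of the 13566 transcripts tested were higher and 8.91% lower (edgeR). DESeq2 and limma-voom likewise called 0, and at an unadjusted p under 0.05 edgeR and DESeq2 each counted 3 genes and limma-voom 5, where edgeR counted 11.9% of all transcripts as higher. The fitted change was above 0 for all 28, against 52.1% of transcripts tested, and below 0 for none, against 47.9%, with a median of 0.09 against 0.01 over all transcripts tested. The summed footprint level was 6592, 6548 and 6085 CPM in Nterm/Nterm and 5991, 5663 and 6330 CPM in wt/wt. These sums overlap, and wt/wt library 2 was the lowest of the 6. Without it the median change was 0.05 and 24 of the 28 changes were above 0. With library totals in place of TMM scaling, a shift that moved the median of all transcripts to -0.02, RPS27 and RPS21 were below 0. In footprints 4 of 12 neuron markers rose and 0 fell, 3 of 7 mesenchymal, 3 of 5 pluripotency and 3 of 6 proliferation markers fell, and 3 of 7 progenitor markers fell while SOX1 rose. Summed neuron marker footprints were 8419.8 to 8616 CPM in Nterm/Nterm and 6157 to 7935 CPM in wt/wt, where library 2 was again the lowest, and the part of these differences in the values below was not tested.

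FAU had 303, 287 and 267 footprint CPM in Nterm/Nterm and 248, 238 and 272 CPM in wt/wt, and only Nterm/Nterm library 3 lay within the wt/wt range. Its change was 0.18 (95% interval 0.02 to 0.33), and its edgeR adjusted p of 0.121 was the lowest of the 28. RPS3 had 412, 418 and 378 footprint CPM in Nterm/Nterm and 349.9, 343 and 392 CPM in wt/wt. Its change was 0.16 (interval 0.00 to 0.31, edgeR adjusted p = 0.181), and its Nterm/Nterm library 3 and wt/wt library 3 crossed. RPSA, the laminin receptor precursor mutated in isolated congenital asplenia, had the highest footprint change, 0.38, with the widest interval, -0.01 to 0.76. Its level was 9.69, 9.17 and 6.64 footprint CPM in Nterm/Nterm and 8.25, 4.64 and 6.93 CPM in wt/wt, from 121, 118 and 101 counts in Nterm/Nterm and 108, 79 and 96 in wt/wt. The groups overlapped, wt/wt library 2 was the lowest, and without it the change was 0.15 (SE 0.18, edgeR adjusted p = 0.687). RPS13 was the 1 gene whose footprints did not overlap, with 242, 232 and 232 CPM in Nterm/Nterm and 221, 206 and 231 CPM in wt/wt, where 14.8% of transcripts tested did not overlap in that direction.

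At the other end, RPS27 had 138, 145 and 127 footprint CPM in Nterm/Nterm and 129.9, 128 and 151 CPM in wt/wt. The libraries of the genotypes were interleaved, with a change of 0.00 (interval -0.15 to 0.16, edgeR adjusted p = 0.989). RPS21, a small protein near RPSA, had 149.7, 145 and 139.7 footprint CPM in Nterm/Nterm and 142, 135 and 150.5 CPM in wt/wt, a change of 0.02 (interval -0.11 to 0.16). RPS29 had 149, 152 and 139 footprint CPM in Nterm/Nterm and 149, 131 and 151 CPM in wt/wt, a change of 0.03 (interval -0.12 to 0.17). The groups overlapped in both. RPS7 had 301, 295 and 279 footprint CPM in Nterm/Nterm and 281, 274 and 296 CPM in wt/wt. RPS25, needed for initiation at some viral internal ribosome entry sites, had 199, 185 and 176 footprint CPM in Nterm/Nterm and 184, 173 and 187 CPM in wt/wt. In both the groups overlapped, with a change of 0.04. The intervals of all 28 genes included a change of 0 except those of FAU, RPS23 and RPS3.

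**Figure D3:**
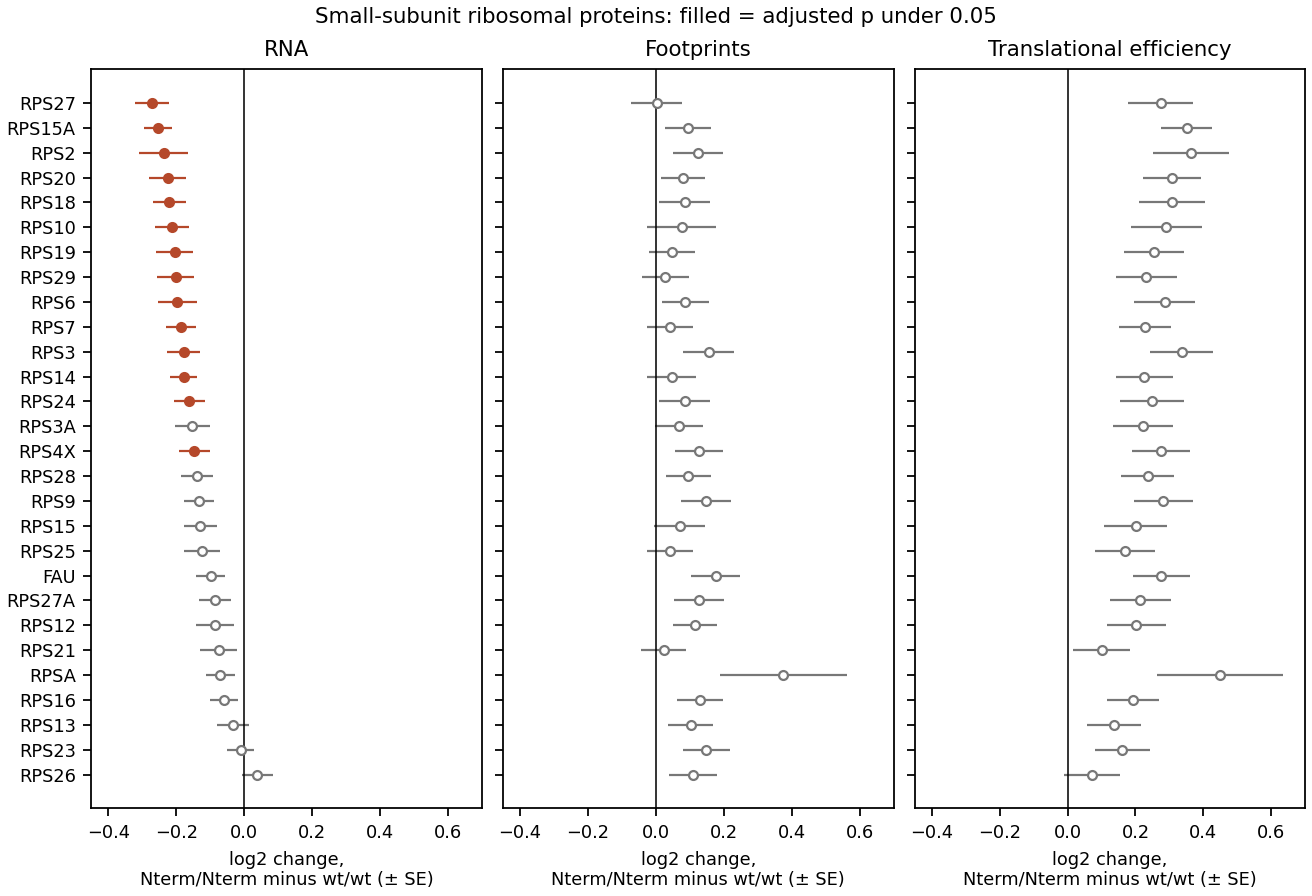
Log2 change, Nterm/Nterm minus wt/wt, with SE for the 28 genes in RNA, footprints and translational efficiency; filled points passed an adjusted p of 0.05 (edgeR), and genes are ordered by RNA change. Points lie left of 0 in RNA for 27 genes and right of 0 for all 28 in footprints and in translational efficiency, where none was called.

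Translational efficiency sets footprints against RNA for each gene, and its change was tested over the 12 libraries as an assay by genotype interaction. The interaction uses the RNA libraries tested above, so its results are not independent of the lower RNA. No small-subunit gene passed the threshold in edgeR, where 1 of 14786 transcripts was called higher (0.00676%) and 2 lower (0.0135%). At an unadjusted p under 0.05, 23 of the 28 were higher, against 2.89% of transcripts tested, and 0 were lower, against 1.71%. All 28 fitted changes were above 0, against 53.7% of transcripts tested, and 0 below it, against 46.3%, with a median of 0.24 against 0.01 over all transcripts tested. In 21 of 28 genes the ratio of footprint to RNA CPM, taken within each numbered pair of libraries, was higher in every Nterm/Nterm pair than in every wt/wt pair, against 7.88% of 13422 transcripts, and lower in 0 of 28, against 5.55%. Numbers were used here only to form the ratios: deviations of same-numbered RNA and footprint libraries correlated at 0.159, 0.306 and 0.411 in Nterm/Nterm but at 0.0404, 0.0849 and 0.218 in wt/wt, so this pairing is not borne out in wt/wt. DESeq2 called 7 genes higher, RPS2, RPS3, RPS4X, RPS6, RPS9, RPS18 and RPS20, of the 15 to which it gave an adjusted p. Its filter on mean counts left 740 transcripts with an adjusted p, of which 38 were called higher (5.14%), and gave none to 13 of the 28 genes. With that filter off, an alternative chosen after seeing the data, DESeq2 called RPS15A alone of the 28 (adjusted p = 0.0219), where it called 0.0338% of 14786 transcripts higher.

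RPS15A had footprint to RNA ratios of 0.455, 0.482 and 0.483 in Nterm/Nterm and 0.357, 0.358 and 0.400 in wt/wt. The groups were well apart, and the log2 change of 0.35 (SE 0.08) had the lowest p of the 28 (unadjusted 0.000165, edgeR adjusted p = 0.304). RPS2 had ratios of 0.369, 0.401 and 0.465 in Nterm/Nterm and 0.283, 0.312 and 0.359 in wt/wt. These did not overlap either, with a change of 0.36 (SE 0.11, edgeR adjusted p = 0.765). RPSA had ratios of 0.0203, 0.0209 and 0.0142 in Nterm/Nterm and 0.0168, 0.0097 and 0.0142 in wt/wt, which overlapped. Its change was the highest, 0.45, with the largest SE, 0.18, and was 0.22 (SE 0.16) without wt/wt footprint library 2. The lowest was that of RPS26, with ratios of 2.66, 2.42 and 2.34 in Nterm/Nterm and 2.38, 2.23 and 2.45 in wt/wt. Its groups overlapped, and its change was 0.07 (95% interval -0.10 to 0.25). RPS21, RPS13, RPS23 and RPS25 followed with changes of 0.10 to 0.17, and their intervals also included 0. RPS21 had ratios of 1.370, 1.370 and 1.407 in Nterm/Nterm and 1.20, 1.25 and 1.43 in wt/wt. RPS13 had ratios of 1.31, 1.36 and 1.38 in Nterm/Nterm and 1.21, 1.14 and 1.35 in wt/wt. RPS23 had ratios of 0.578, 0.591 and 0.506 in Nterm/Nterm and 0.481, 0.496 and 0.522 in wt/wt. The genotypes overlapped in these genes, whereas RPS25 had ratios of 0.958, 0.961 and 0.964 in Nterm/Nterm and 0.842, 0.805 and 0.925 in wt/wt, which did not overlap. The median change was 0.23 in the 12 head genes and 0.26 in the 16 body and platform genes.

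In the authors' deposited table of translational efficiency, the Nterm/Nterm mean divided by the wt/wt mean was above 1 for all 28 genes and for 5484 of 10932 rows. This quotient in the authors' deposited table ran from 1.04 for RPS26 to 1.34 for RPSA, with a median of 1.17 against 1.00 over all rows. Of the 28 genes, 11 had an unadjusted p under 0.05 in the authors' deposited table, against 2.36% of rows with such a p and a ratio above 1. That table and the interaction fit rest on the same libraries.

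The genes differed far more from each other in footprints per RNA than they did between genotypes. Their median in wt/wt was 0.676, against 1.16 over 10718 named transcripts, and 23 of the 28 lay below that value. The ratio compares a gene with itself but was not adjusted for transcript or coding length. RPSA was lowest, at 0.0184 ± 0.0037 in Nterm/Nterm and 0.0136 ± 0.0036 in wt/wt (SD, n = 3 each). Its RNA counts summed to 27885 in Nterm/Nterm and 34832 in wt/wt, and its footprint counts to 340 and 283. RPS10 followed, at 0.0903 ± 0.0037 in Nterm/Nterm and 0.0740 ± 0.0080 in wt/wt. RPS2, at 0.412 ± 0.049 and 0.318 ± 0.038, was the next. At the top stood RPS26, at 2.47 ± 0.17 in Nterm/Nterm and 2.35 ± 0.11 in wt/wt, and FAU, at 1.80 ± 0.07 and 1.49 ± 0.12. The wt/wt ranges of RPSA, RPS10 and RPS2 did not touch each other, whereas many genes in the middle of the order overlapped with their neighbours. Ribosomal protein genes have many processed pseudogenes, and the sources used here do not say how reads with more than 1 matching transcript were counted. The pseudogene RPSAP58 has a row of its own, with 111, 137 and 154 footprint counts in Nterm/Nterm and 103, 143 and 131 in wt/wt. Its RNA counts were 598, 499 and 576 in Nterm/Nterm and 711, 696 and 675 in wt/wt. RPSA had 79 to 121 footprint counts and 8360 to 12205 RNA counts in a library. The values of RPSA, RPS10 and the other members are therefore uncertain as levels, and the part of shared reads in the low ratios was not tested.

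**Figure D4:**
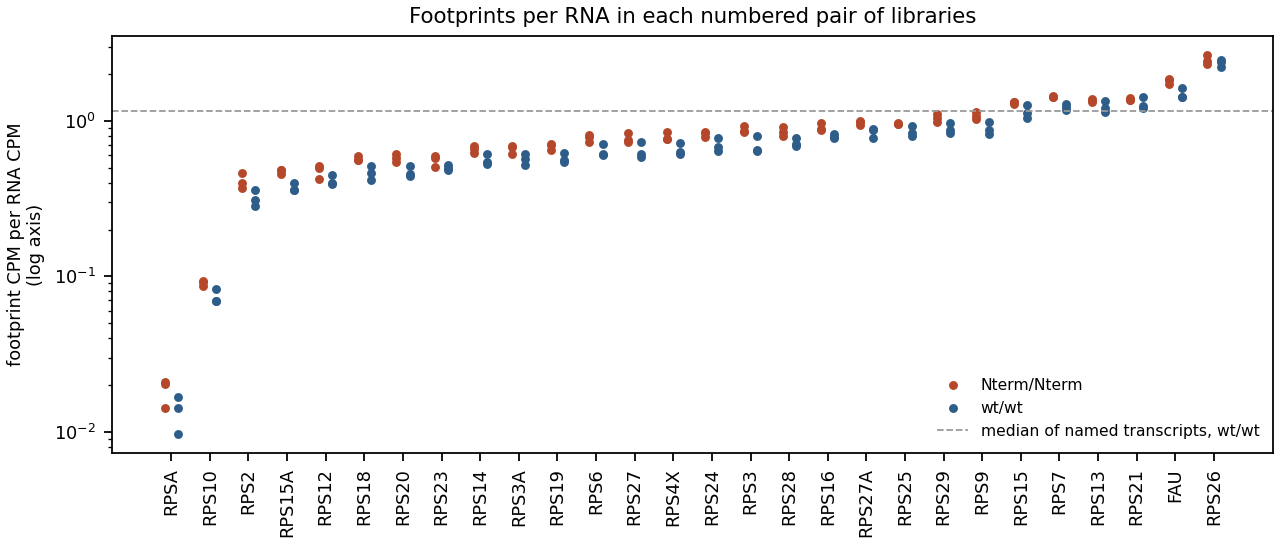
Footprint CPM per RNA CPM, on a log axis, for the 28 genes in each numbered pair of libraries, Nterm/Nterm and wt/wt side by side and ordered by the wt/wt mean. The dashed line is the wt/wt median of named transcripts, 1.16, and 23 genes have a wt/wt mean below it.

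Genes related to the small subunit were set beside these, with 10.6% of all transcripts tested lower in RNA and 7.25% higher. Of 47 large-subunit proteins 32 fell and 0 rose in RNA, with a median of -0.17, and 0 were called in footprints, where the median was 0.09. Their median change in translational efficiency was 0.26, with 47 of 47 above 0 and 0 called. The largest falls in RNA were those of RPL17 and RPL28, each at -0.25. Of 15 other TOP mRNAs 5 fell in RNA, led by the poly(A)-binding protein PABPC1 at -0.27 (SE 0.05, edgeR adjusted p = 0.00746) and the elongation factor EEF2 at -0.16 (SE 0.04, edgeR adjusted p = 0.0150). Their median was -0.10 in RNA and 0.18 in translational efficiency.

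Factors that build or carry the small subunit gave no call. Of 30 assembly factors and chaperones, 0 were called in RNA or in footprints by edgeR, with medians of -0.01 and 0.01. TSR2, the chaperone of RPS26, changed by -0.13 in RNA (SE 0.06, edgeR adjusted p = 0.174), and PDCD2, which carries RPS2, changed by 0.02 (SE 0.06, edgeR adjusted p = 0.828). The 30 mitochondrial small-subunit proteins likewise had 0 calls in RNA and in footprints, with medians of -0.01 and 0.01. Of 12 regulators that act on small-subunit proteins or their mRNAs, LARP1 rose in RNA by 0.14 (SE 0.04, edgeR adjusted p = 0.0285). Its footprints changed by 0.19 (SE 0.07, edgeR adjusted p = 0.0731). PDCD4, an inhibitor of translation that S6 kinase phosphorylates, fell in RNA by 0.34 on the log2 scale (edgeR adjusted p = 0.0180) and in footprints by 0.26 (edgeR adjusted p = 0.0365). MDM2, the ubiquitin ligase of p53 that free ribosomal proteins can bind, fell in RNA by 0.32 on the log2 scale (edgeR adjusted p = 0.0116), and its footprint change was -0.14 (SE 0.10, edgeR adjusted p = 0.381).

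**Figure D5:**
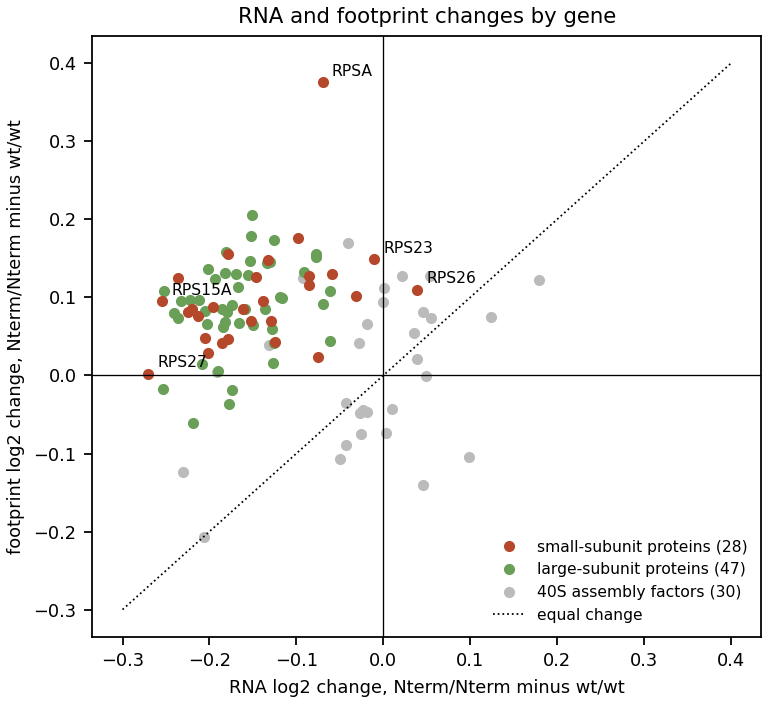
Log2 change in RNA (horizontal) against log2 change in footprints (vertical), Nterm/Nterm minus wt/wt, for 28 small-subunit proteins, 47 large-subunit proteins and 30 factors of 40S assembly; the dotted line marks equal change. Both kinds of ribosomal protein lie left of 0 in RNA, RPS26 excepted, and mostly above 0 in footprints, while assembly factors lie around 0 on both axes.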

How the data were processed

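Per the labels, RNA-seq and Ribo-seq of induced neurons gave 12 libraries in 4 groups of 3. The authors deposited whole-number counts per transcript, not normalised, and a table with the mean ratio of footprints to RNA, its SD and an unadjusted p-value. The submitters' processing notes list Salmon 1.4.0, Bowtie2 2.3.4.3, limma, edgeR, UMI-tools 1.0.1, cutadapt 2.4 and build GRCh37, without saying what each did. Gene names came from the deposited table and cover 10872 transcripts, each with a total of at least 1016 counts.

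Counts were filtered (filterByExpr), scaled (TMM) and tested with edgeR 4.0.16 in R 4.3.3 by the two-sided quasi-likelihood F test, with Benjamini-Hochberg adjustment over all transcripts tested and a threshold of 0.05. RNA and footprints were fitted separately, and translational efficiency as the assay by genotype interaction over 12 libraries. A log2 change is Nterm/Nterm over wt/wt, and the SE is the size of the change over the square root of F. Intervals are 95%. CPM were computed from the filtered total times the TMM factor. The scripts were tested on simulated data. DESeq2 1.42.0, limma-voom (limma 3.58.1), other scalings, no filter, single libraries left out, the genotype tag and a replicate block were tried.

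Deviations from the group means correlated between same-numbered RNA libraries of the genotypes at 0.134, 0.128 and 0.247, all over 0.1. Different-numbered RNA libraries gave -0.178 to 0.0601. The numbers were therefore taken to pair RNA libraries. This check cannot settle the pairing, since deviations of 3 libraries about their mean depend on each other. Between same-numbered footprint libraries the values were 0.0374, 0.127 and 0.264, and there the numbers were not taken to pair.

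Members, lists and tests were chosen with earlier results of these data known, so no p is given for any list. Genes described with values in each library are the 5 lowest and 3 highest changes per comparison, beside others named for context. Levels of different genes were not compared per length.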

Additional observations from a re-analysis of the deposited data

How the results depend on the processing

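Of the 28 genes, 14 fell in RNA, 13 to 15 under other scalings, no filter, DESeq2 and limma-voom (9.24% to 10.9% of all transcripts lower), 23 with the replicate block (16.4%), and 2 to 17 with single libraries left out (4.13% to 11.6%, medians -0.19 to -0.12). RPS27 and RPS15A kept their RNA call in all of these. RPS23 in RNA ranged from -0.0293 to 0.0111 with single libraries left out. Footprint calls were 0 in every setting run. The footprint median was 0.05 to 0.13 with single libraries left out, 0.09 with the replicate block and -0.0912 with the genotype tag. With single footprint libraries left out RPS14 ranged from -0.00203 to 0.0979, RPS21 from -0.020 to 0.064, RPS25 from -0.0075 to 0.085, RPS27 from -0.048 to 0.082 and RPS29 from -0.038 to 0.067. With library totals RPS21 was -0.0047, RPS27 was -0.026 and the median of 40S assembly factors was -0.016. With TMM factors set without ribosomal proteins RPS27 was -0.0075. In translational efficiency 7 genes were called higher by DESeq2 (5.14% of transcripts with an adjusted p), 1 by DESeq2 without its filter on mean counts (RPS15A, 0.0338%), 1 with RNA and footprints of a number as a matched-library replicate block (RPS15A, adjusted p = 0.0207, 0.108% of transcripts) and 1 with the genotype tag (RPS27, with a median of 0.0680, 15.5% of transcripts). The plain replicate block gave 0 calls in footprints and in translational efficiency, where the median was 0.24. With single libraries left out that median was 0.20 to 0.28 and no gene was called. Apart from the effect of DESeq2's filter, the causes were not tested. Depth limits RPSA most, with 79 to 121 footprint counts in a library.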
